A study of Mus musculus with 64 samples.

Results

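Transcripts of 10 ionotropic glutamate receptor subunit genes were followed in the mouse striatum: the NMDA receptor genes Grin1, Grin2a, Grin2b, Grin2c, Grin2d and Grin3a, and the kainate receptor genes Grik1, Grik2, Grik4 and Grik5. The list is given by gene name and its rule uses no measured value, and they are 10 of the 27179 genes in each count table. RNA sequencing counts came from 16 N/- mice (8 males and 8 females) and 16 N/N mice (8 males and 8 females), all on the C57BL/6NJ background. These numbers follow the mouse labels, while the series text gives 8 mice per genotype, and for each of the 64 runs the closest other run by correlation was that of its own labelled mouse. N is the Cyfip2 allele of the C57BL/6N substrains, which differs from the C57BL/6J allele by a missense variant, and the minus sign stands for a null allele. The labels call N/- mice binge-resistant and N/N mice binge-prone. All mice were 82 to 84 days old, and their striatum was punched out on Day 24, straight after 5 min on an elevated plus maze. The labels give neither diet nor training, and differently treated mice of a genotype, if any, cannot be told apart. The labels do not say that the mice came from separate litters, so p-values measure the spread between these mice.

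NMDA receptors are glutamate-gated cation channels that also need glycine or D-serine to open. Each contains GluN1, the product of Grin1, joined to GluN2 subunits (Grin2a to Grin2d), which bind glutamate and set how fast the channel closes, or to GluN3 subunits such as that of Grin3a, which lower its calcium permeability. Kainate receptors are related channels in which the products of Grik1 and Grik2 can form receptors by themselves, whereas those of Grik4 and Grik5 bind glutamate with high affinity and need one of the others as a partner. In the striatum both families sit at synapses where cortical and thalamic axons excite the projection neurons, and NMDA receptors take part in the plasticity of these synapses.

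All 10 genes lie on the minus strand of GRCm38 in the annotation (GENCODE M21), and the bounds given here are those of RefSeq. Grin1 spans chr2:25291177-25319187, Grin2a chr16:9567901-9996083, Grin2b chr6:135713221-136173615, Grin2c chr11:115249169-115267297 and Grin2d chr7:45831883-45871194. Grin3a spans chr4:49661611-49846023, Grik1 chr16:87895901-88290863, Grik2 chr10:49093680-49790161, Grik4 chr9:42518182-42945000 and Grik5 chr7:25009849-25075694. The values are reads over all exons of a gene, so splice forms are not told apart.

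Promoter windows of 4 of the 6 members with an entry in the table are shown, with Grin2a, Grin2b, Grin3a and Grik1 not among the 6. They were chosen for 2 of the patterns: Grin1 and Grik5 had the highest levels per length and varied together between mice, and Grik4 and Grik2 varied in opposite directions. Each window, from RefSeq on GRCm38.p6, runs from 250 bases before an annotated start to 50 bases after it. It is read 5′ to 3′ on the minus strand, which holds all 4 genes. Only the Grin1 window lies at the outer bound of its gene given above. Those of Grik5, Grik4 and Grik2 lie wholly inside the gene bounds, so they belong to a start within the gene, and an outer start is not shown. Capitals mark the GC box GGGCGG, or its reverse complement CCGCCC on the shown strand, the known binding motif of Sp1-family transcription factors.
Grin1 promoter, chr2:25319138-25319437: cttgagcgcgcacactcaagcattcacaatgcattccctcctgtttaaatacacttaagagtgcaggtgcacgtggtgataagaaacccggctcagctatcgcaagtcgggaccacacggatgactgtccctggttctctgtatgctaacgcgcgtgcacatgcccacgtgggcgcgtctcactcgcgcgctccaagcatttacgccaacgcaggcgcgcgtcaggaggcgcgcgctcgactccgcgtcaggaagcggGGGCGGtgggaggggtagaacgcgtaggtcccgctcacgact
Grik5 promoter, chr7:25072320-25072619: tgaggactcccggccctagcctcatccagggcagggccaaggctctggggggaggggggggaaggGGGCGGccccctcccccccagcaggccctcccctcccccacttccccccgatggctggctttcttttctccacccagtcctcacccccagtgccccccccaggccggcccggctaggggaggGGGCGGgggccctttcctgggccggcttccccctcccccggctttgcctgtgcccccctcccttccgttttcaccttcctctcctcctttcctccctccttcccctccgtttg
Grik4 promoter, chr9:42944322-42944621: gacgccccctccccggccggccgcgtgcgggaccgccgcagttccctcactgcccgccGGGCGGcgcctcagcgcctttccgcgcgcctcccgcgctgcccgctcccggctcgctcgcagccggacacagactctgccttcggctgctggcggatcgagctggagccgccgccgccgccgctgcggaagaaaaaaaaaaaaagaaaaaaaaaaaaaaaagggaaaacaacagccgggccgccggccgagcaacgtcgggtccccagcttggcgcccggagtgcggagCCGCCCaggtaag
Grik2 promoter, chr10:49788705-49789004: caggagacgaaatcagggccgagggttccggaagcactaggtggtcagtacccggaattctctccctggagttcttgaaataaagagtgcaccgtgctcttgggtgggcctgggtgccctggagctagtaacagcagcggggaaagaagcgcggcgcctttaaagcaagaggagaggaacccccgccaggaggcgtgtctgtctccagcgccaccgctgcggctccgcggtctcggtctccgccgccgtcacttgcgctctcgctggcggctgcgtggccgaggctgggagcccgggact
The windows of Grik5 and Grik4 held 2 GC boxes each, that of Grin1 held 1, and that of Grik2 held none, while 35.7% of the 32851 promoter windows in the RefSeq table held at least 1. The windows were 72.0% (Grik5), 70.0% (Grik4), 64.7% (Grik2) and 60.7% (Grin1) G or C, against a median of 52.7% over all windows. CpG dinucleotides numbered 42 in the Grik4 window, 33 in that of Grin1, 26 in that of Grik2 and 10 in that of Grik5, against a median of 7. No factor binding was measured here.

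Counts summed over 2 sequencing runs were 28.8 M to 33.8 M per mouse (M, mega counts), and 16776 genes passed the filter on low counts, all 10 members among them. Cyfip2, the targeted gene, averaged 597 ± 43.9 counts per mega counts of library (CPM) in N/- mice and 1068 ± 96.4 CPM in N/N mice (SD, n = 16 each), with no overlap between the groups. The lanes named in the labels divide the mice into set A (10 N/- and 6 N/N mice) and set B (6 N/- and 10 N/N mice), so set was a term in the tests. All 20 projection neuron markers passed the filter on low counts. Their summed levels were 10476 to 20189 CPM in N/- and 14666 to 20877 CPM in N/N mice. Mouse 3, labelled N/N female, had 36 Xist counts against 27239 to 48029 in the other females. Its counts of the Y-linked gene Ddx3y were 31, against 2 to 64 in the other females and 2200 to 3050 in the males. A result whose sign or call changes without this mouse is given with its value. This does not cover the genotype estimates within each sex or the interaction, for which member values without mouse 3 were not examined.

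The scarcest of the 10 was Grin2d, with 96 to 328 counts per mouse, and the most abundant in counts was Grin1, with 7892 to 12505. Per kb of annotated exon, Grik5 had the highest mean level over all mice at 61.3 ± 5.81 CPM per kb (SD, n = 32), followed by Grin1 at 33.0 ± 2.60 CPM per kb, and each lay above the next gene in the order in 32 of 32 mice. Grin2c at 12.8 ± 1.08 CPM per kb lay above Grik2 at 10.7 ± 1.32 CPM per kb in 30 mice, and Grik2 lay above Grik4 at 2.74 ± 0.48 CPM per kb in all 32. Below these came Grin2b at 2.15 ± 0.51, Grik1 at 1.06 ± 0.30, Grin3a at 0.954 ± 0.228, Grin2d at 0.831 ± 0.197 and Grin2a at 0.657 ± 0.128 CPM per kb. Neighbours in this lower range overlapped, since Grik4 exceeded Grin2b in 25 mice, Grik1 exceeded Grin3a in 22, Grin3a exceeded Grin2d in 22 and Grin2d exceeded Grin2a in 25.

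The order depends on which length is used, because exon length includes untranslated sequence and differs more between members than coding length. Both lengths come from GENCODE M21, whereas the annotation behind the deposited counts is not known here. The bases that were counted may therefore differ from these lengths, and the order per kb holds only with that limit. The exons of Grin2b cover 24.8 kb and those of Grin2a 17.9 kb, although their longest coding sequences are 4.45 kb and 4.39 kb. Per kb of coding sequence, Grin1 at 111 ± 8.78 CPM per kb and Grik5 at 108 ± 10.2 CPM per kb were nearly level, with Grin1 the higher in 20 of 32 mice. Grik2 came next at 51.9 ± 6.41 CPM per kb, Grin2c followed at 17.4 ± 1.46 and Grin2b at 12.04 ± 2.85 CPM per kb. On this scale Grin2b exceeded Grik4, at 5.69 ± 0.99 CPM per kb, in 30 mice, which is the opposite of their order per kb of exon. On both scales the GluN2 gene with the higher level of the pair Grin2a and Grin2b, known as the main GluN2 genes of the forebrain, was Grin2b.

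The first comparison asked whether the subunit transcripts differ in N/- mice from N/N mice. No member passed: 0 of 10 were called by edgeR's quasi-likelihood test at a Benjamini-Hochberg adjusted p of 0.05, beside 0.0119% of all genes (En2 up and Cyfip2 down, 0.00596% each way). At an unadjusted p under 0.05 there were 2 members, Grik1 and Grin3a, both higher in N/-, against 6.46% of all genes. DESeq2 and limma voom also called none of the 10, with the same 2 genes at an unadjusted p under 0.05 in DESeq2 and Grik1 alone in limma voom. The log2 fold change was positive for 6 members and negative for 4, with a median of 0.14 over the members beside -3.42e-05 over all genes.

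**Figure D1:**
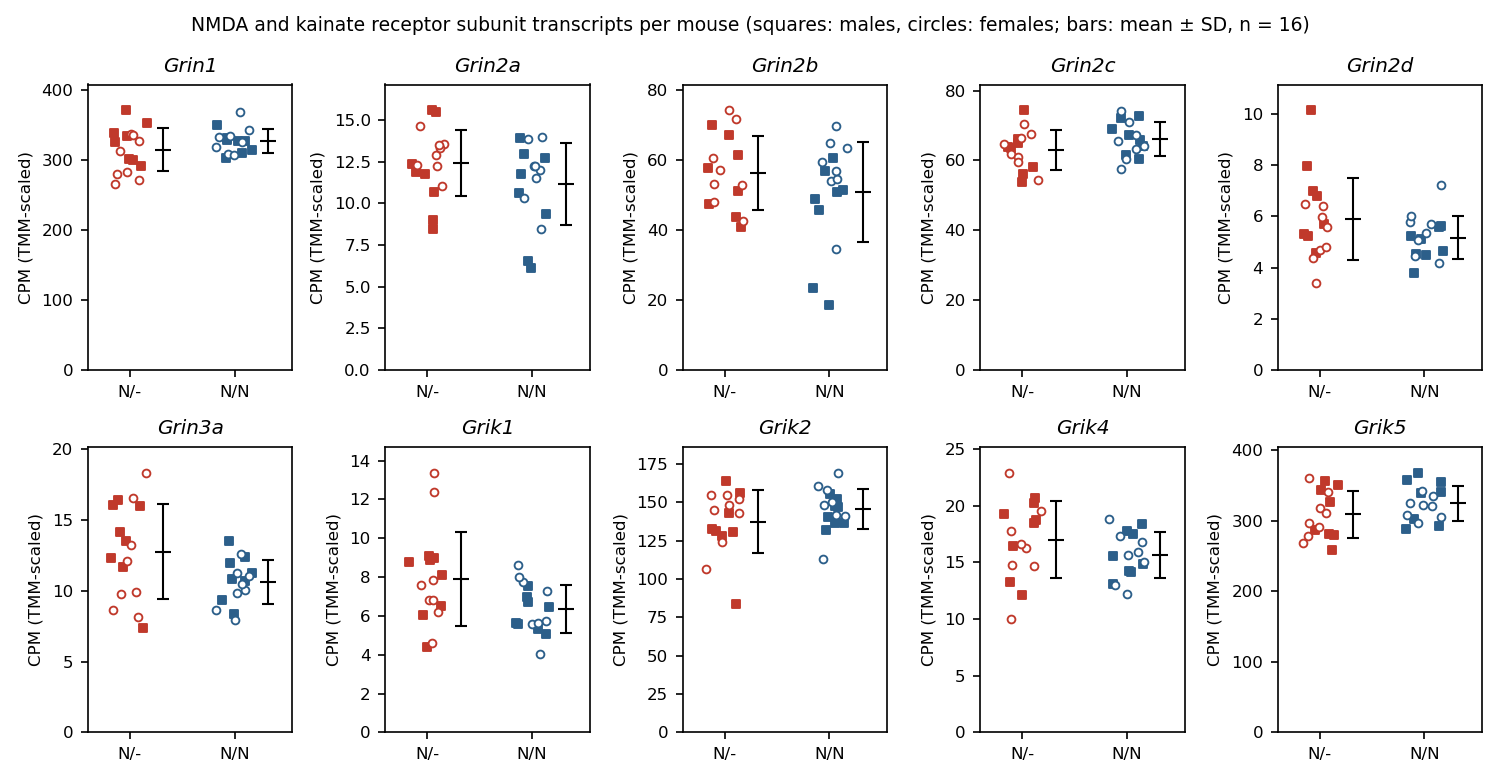
Level of each subunit transcript in CPM (vertical axis, from 0) for every N/- mouse (left, red) and N/N mouse (right, blue), with squares for males, circles for females, and the mean ± SD of 16 mice beside each group. The N/- and N/N mice overlap in all 10 panels, and the points spread most widely, relative to the mean, for Grik1, Grin2d, Grin3a and Grin2b.

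Grin1, the obligatory NMDA subunit, ranged from 265 to 370.5 CPM with a median of 319 in N/- mice, against 303 to 369 with a median of 327 CPM in N/N mice. The 2 genotypes overlapped over nearly the whole N/N range, and some N/- mice lay below it. N/- over N/N the fold was 0.974 (95% interval 0.923 to 1.03). As log2 this was -0.037, and -0.0095 without mouse 3.

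Among the GluN2 genes, Grin2b ranged from 40.9 to 74.1 CPM with a median of 55.2 in N/- mice, against 18.6 to 69.6 with a median of 54.2 CPM in N/N mice. The medians were nearly level, and the lowest values belonged to 3 N/N mice (mice 6, 22 and 28 at 18.6, 23.5 and 34.5 CPM). The log2 fold change was 0.16 (95% interval -0.12 to 0.44), and 0.078 without mouse 6. Grin2a, its partner at adult forebrain synapses, ranged from 8.49 to 15.6 CPM with a median of 12.3 in N/- mice, against 6.10 to 13.97 with a median of 11.9 CPM in N/N mice. Here too mice 6 and 22 were lowest, at 6.10 and 6.57 CPM, and the log2 fold change was 0.13 (95% interval -0.07 to 0.34), and 0.075 without mouse 6. Grin2c, known best for its expression in cerebellum and in astrocytes, ranged from 54.0 to 74.3 CPM (median 63.8) in N/- mice, against 57.5 to 74.2 CPM (median 65.8) in N/N mice. The ranges coincided almost fully, with a fold of 0.945 (95% interval 0.889 to 1.004).

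Grin2d, known from interneurons and subcortical nuclei, ranged from 3.41 to 10.1 CPM with a median of 5.64 in N/- mice, against 3.80 to 7.20 with a median of 5.16 CPM in N/N mice. The N/- values spread to both sides of the N/N range, with a log2 fold change of 0.18 (95% interval -0.05 to 0.41). Grin3a, which encodes a glycine-binding subunit, ranged from 7.40 to 18.4 CPM with a median of 12.8 in N/- mice, against 7.97 to 13.5 with a median of 10.8 CPM in N/N mice. The groups overlapped, but the highest values were all from N/- mice. Its log2 fold change was 0.24 (95% interval 0.01 to 0.47), with an unadjusted p of 0.0399 and an adjusted p of 0.769 (edgeR quasi-likelihood test, Benjamini-Hochberg).

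Of the kainate receptor genes that can form channels by themselves, Grik1 ranged from 4.41 to 13.4 CPM with a median of 7.70 in N/- mice, against 4.03 to 8.60 with a median of 6.10 CPM in N/N mice. The N/- range covered nearly all of the N/N range and several N/- mice lay above it, with mice 4 and 9 highest at 13.4 and 12.4 CPM. The log2 fold change of Grik1 was 0.31 (95% interval 0.04 to 0.58), with an unadjusted p of 0.0265 and an adjusted p of 0.767 (edgeR quasi-likelihood test, Benjamini-Hochberg). Without mouse 3 this log2 fold change was 0.25, the lowest with any single mouse left out. Grik2, the more abundant of the pair, ranged from 83.7 to 164 CPM with a median of 143 in N/- mice, against 113 to 169 with a median of 147 CPM in N/N mice. All but 2 of the N/- mice lay within the N/N range, and the log2 fold change was -0.07 (95% interval -0.20 to 0.06).

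Of the high-affinity kainate subunits, Grik4 ranged from 10.02 to 22.9 CPM with a median of 17.2 in N/- mice, against 12.2 to 18.8 with a median of 15.6 CPM in N/N mice. The N/- mice reached beyond the N/N range at both ends, and the log2 fold change was 0.15 (95% interval -0.03 to 0.33). Grik5 ranged from 259 to 360.5 CPM with a median of 304 in N/- mice, against 288 to 368 with a median of 324 CPM in N/N mice. The groups overlapped broadly and the fold was 0.979 (95% interval 0.926 to 1.04).

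**Figure D2:**
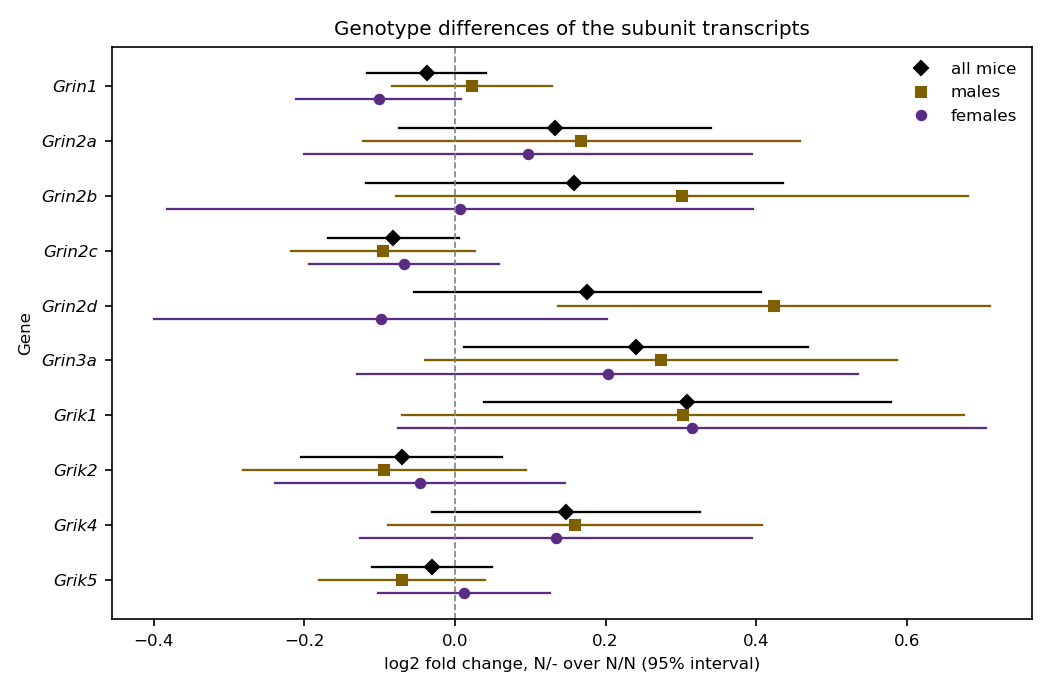
Log2 fold change, N/- over N/N, of each subunit transcript (horizontal axis) with its 95% interval, for all mice (black diamonds), males (brown squares) and females (purple circles). The intervals are narrowest for Grin1, Grik5 and Grin2c and widest for Grik1 and Grin2b, and over all mice only those of Grin3a and Grik1 leave out 0, before adjustment over genes.

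Estimates were also made within each sequencing set. Within set A the log2 fold change was 0.56 for Grik1, 0.46 for Grin3a and 0.42 for Grin2d, while within set B it was 0.08, -0.02 and -0.04 for the same genes. No member passed the adjusted threshold within either set, and the difference between sets was not tested. Grik4 gave 0.16 in set A and 0.14 in set B, Grin2a gave 0.13 and 0.12, and Grin2b gave 0.19 and 0.11. No neuron marker was called between the genotypes by the same test. Of 16 cortical glutamatergic neuron markers 14 had a positive log2 fold change, 5 of them at an unadjusted p under 0.05, and of 20 projection neuron markers 0 were positive and 8 had an unadjusted p under 0.05. Of all genes, 49.96% had a positive log2 fold change and 6.46% an unadjusted p under 0.05. The cortical glutamatergic neuron score, the mean of 16 marker genes as log2 deviations from their overall mean, averaged 0.10 ± 0.45 in N/- and -0.10 ± 0.26 in N/N mice (SD, n = 16 each). The striatal projection neuron score, built in the same way from 20 genes, averaged -0.08 ± 0.24 in N/- and 0.08 ± 0.14 in N/N mice. With the projection neuron score as a covariate the genotype differences became 0.02 for Grik1, 0.07 for Grin3a, 0.06 for Grin2d and -0.02 for Grik4. With the cortical score as a covariate they were 0.14 for Grik1, 0.13 for Grin3a, 0.17 for Grin2d and 0.00 for Grik4. The same alternatives left Grin2b at 0.17 and 0.18 and Grin2c at -0.08 and -0.07. In punched tissue, fewer cells of a type and less RNA per cell cannot be told apart.

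Within each sex, N/- was again compared with N/N. No member was called in males or in females by edgeR's quasi-likelihood test, Benjamini-Hochberg adjusted, beside 0.0119% of all genes in each sex (0.00596% up and 0.00596% down in males, and the same shares in females). Unadjusted p-values under 0.05 were found for 1 member in males, beside 3.5% of all genes, and for 0 in females, beside 3.73%. The member was Grin2d. Its levels in males were 4.58 to 10.1 CPM with a median of 6.25 in N/-, against 3.80 to 5.61 with a median of 4.88 CPM in N/N. In females they were 3.41 to 6.49 CPM with a median of 5.195 in N/-, against 4.19 to 7.20 with a median of 5.53 CPM in N/N. Male N/- mice reached above the N/N males, while female N/- and N/N mice overlapped.

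The log2 fold change of Grin2d was 0.42 (95% interval 0.14 to 0.71) in males and -0.10 (95% interval -0.40 to 0.20) in females. The difference between them, the genotype by sex interaction, was 0.52 (SE 0.20) with an unadjusted p of 0.0137 and an adjusted p of 0.99998 in edgeR's quasi-likelihood test. No gene at all was called for this interaction, with 1.74% of genes at an unadjusted p under 0.05, and limma voom called none either. The highest value, 10.1 CPM, came from N/- male mouse 2. That mouse also had the highest scores for striatal interneuron markers (0.40), for choroid plexus and ependymal markers (1.37) and for markers of thalamus, septum and neighbouring regions (1.12), and the part of these in the result was not tested. All 15 interneuron markers passed the filter on low counts, with sums of 1212 to 1766 CPM in N/- and 1275 to 1624 CPM in N/N mice. All 10 choroid plexus and ependymal markers summed to 21.6 to 94.7 CPM in N/- and 21.8 to 46.8 CPM in N/N mice. All 10 of the neighbouring regions summed to 63.4 to 216 CPM in N/- and 64.3 to 154 CPM in N/N mice. No marker of these 2 lists was at 0 when counts were summed over all mice. Without mouse 2 the male difference was 0.32 and the interaction 0.40, with unadjusted p-values of 0.0209 and 0.0402. The other 9 members had interaction estimates from -0.08 (Grik5) to 0.29 (Grin2b), and each interval included 0.

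Sex and sequencing set were tested in the same fit. Male over female, 0 of 10 members were called by edgeR's quasi-likelihood test, beside 0.107% of all genes (0.0298% up), and 0 had an unadjusted p under 0.05, beside 5.36%. Limma voom called none either. The largest estimates were for Grin2b at -0.21 (95% interval -0.48 to 0.06) and Grin2a at -0.16 (95% interval -0.36 to 0.05). For set B over set A, 0 of 10 were called by edgeR and by limma voom, beside 0.161% of all genes, 0.0298% up (27 genes, 8 without mouse 3 and 11 without mouse 12), and 2 had an unadjusted p under 0.05, beside 11%. Grik5 ranged from 278 to 368 CPM with a median of 341 in set B, against 259 to 339.5 with a median of 295 CPM in set A. Most set B mice lay above the set A median, with a log2 fold change of 0.17 (SE 0.04) and an adjusted p of 0.0655 (edgeR quasi-likelihood test, Benjamini-Hochberg). Grin1, the other of the 2, gave a log2 fold change of 0.09 (SE 0.04).

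Next came the question of which members vary with the neuron mix of the punch. The slope of each transcript on the cortical score, in log2 units per 1 log2 unit of score with set, sex and genotype as terms, was called for 4 of 10 members by edgeR's quasi-likelihood test, beside 16.6% of all genes (10.1% up and 6.49% down). Grik4, Grik1 and Grin3a rose with cortical marker RNA and Grik2 fell. The slope was 0.59 (SE 0.06) for Grik4, 0.69 (SE 0.12) for Grik1, 0.41 (SE 0.13) for Grin3a and -0.36 (SE 0.07) for Grik2. The adjusted p was 3.43e-09 for Grik4, 6.44e-05 for Grik1, 0.0214 for Grin3a and 0.000114 for Grik2 (edgeR quasi-likelihood test, Benjamini-Hochberg). The slopes of the other 6 members lay between -0.09 (Grin2b) and 0.12 (Grin2a), and each interval included 0.

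On the projection neuron score the same 4 members were called, each with the opposite sign, beside 19.5% of all genes (8.72% up and 10.8% down). Grik1 fell steeply, with a slope of -1.72 (SE 0.13), followed by Grik4 at -1.01 (SE 0.14) and Grin3a at -0.95 (SE 0.22), while Grik2 rose with a slope of 0.58 (SE 0.14). The adjusted p was 4.83e-12 for Grik1, 8.19e-07 for Grik4, 0.00185 for Grin3a and 0.00198 for Grik2 (edgeR quasi-likelihood test, Benjamini-Hochberg). Grin2d had a slope of -0.69 (SE 0.27) and Grin1 one of 0.20 (SE 0.09), both with unadjusted p-values under 0.05 only, which 6 of 10 members and 29.8% of all genes had. Both scores come from the same libraries, so the slopes on them are not independent results. No cortical or projection neuron marker was a member, and all of both lists passed the filter on low counts.

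Single mice are given as examples. N/- female mouse 4, with the highest cortical score (0.99) and a projection neuron score of -0.57, had 13.4 CPM of Grik1, 22.9 CPM of Grik4 and 106 CPM of Grik2. N/- female mouse 9, with scores of 0.69 and -0.58, had 12.4 CPM of Grik1, 19.5 CPM of Grik4, 124 CPM of Grik2 and the highest Grin3a at 18.4 CPM. At the other end, N/N female mouse 3, with scores of -0.59 and 0.37, had 4.03 CPM of Grik1, 12.2 CPM of Grik4 and 161 CPM of Grik2. In these 3 mice high Grik1 and Grik4 went with low Grik2, and low Grik1 and Grik4 with high Grik2. N/- male mouse 2 did not follow this, with a cortical score of -0.57, a projection neuron score of -0.01, 8.12 CPM of Grik1, 13.2 CPM of Grik4, 16.1 CPM of Grin3a and 131 CPM of Grik2. Summed cortical markers ran from 874 to 2645 CPM in N/- mice and from 918 to 1629 CPM in N/N mice.

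**Figure D3:**
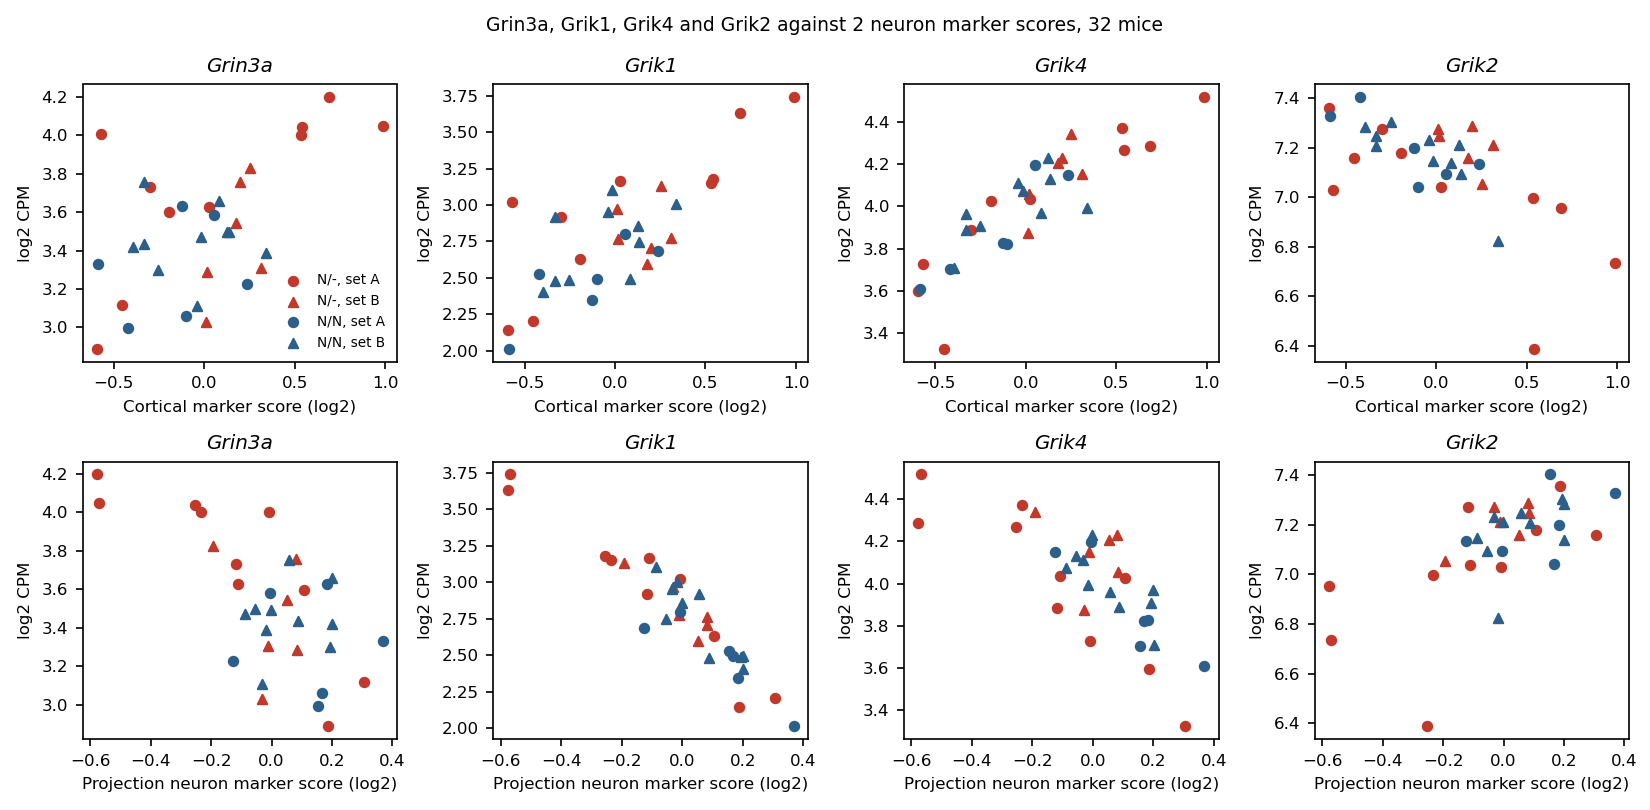
Log2 CPM (vertical axes) of Grin3a, Grik1, Grik4 and Grik2 in 32 mice against the cortical glutamatergic neuron score (upper row) and the striatal projection neuron score (lower row), both in log2 units, for N/- (red) and N/N (blue) mice of set A (circles) and set B (triangles). Grik1, Grik4 and Grin3a climb to the right in the upper row and decline in the lower row, Grik2 does the opposite, and set A mice span a wider range of both scores.

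Correlations were computed on log2 CPM after removing set, sex and genotype, with 30 relations in the family (3 scores by 10 members). The members called on each neuron score passed here too. Against the projection neuron score Grin2d also passed, with an r of -0.45 and a rho of -0.51 (adjusted permutation p 0.0285 and 0.0117). Grin1 passed by its rho of 0.43 but not its r of 0.38 (adjusted permutation p 0.0389 and 0.0738). The slopes of Grin2d and Grin1 had not passed, with adjusted p-values of 0.0666 and 0.130 in edgeR's quasi-likelihood test. Grik1 against the projection neuron score gave a Pearson r of -0.94 and a Spearman rho of -0.90 over 32 mice. Both had a permutation p of 1e-05, the smallest that 100000 resamples can give, and adjusted values of 6.00e-05 and 7.50e-05. Without the 2 mice farthest from the median of the score r was -0.92, and it was -0.95 in set A and -0.90 in set B. Grik4 against the cortical score gave an r of 0.88 and a rho of 0.86, again with a permutation p of 1e-05 and adjusted values of 6.00e-05 and 7.50e-05, an r of 0.84 without the 2 farthest mice, 0.92 in set A and 0.71 in set B. Grin3a was less even: against the projection neuron score its r was -0.61 and its rho -0.49 (permutation p of 0.00028 and 0.00527, adjusted 0.00105 and 0.0176). That r was -0.46 without the 2 farthest mice, -0.70 in set A and -0.07 in set B.

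Fitted within set A alone, 3 members kept their call on the cortical score (Grik1, Grik2 and Grik4) and all 4 on the projection neuron score. Within set B alone, where both scores span less, Grik2 passed on the cortical score with a slope of -0.48, and Grik1 passed on the projection neuron score together with Grin2d at -1.80. There the cortical slopes were 0.54 for Grik4, 0.39 for Grik1 and 0.39 for Grin3a, none past the threshold. The cortical slope of Grin3a was also not past the threshold when any one of N/- mice 4, 9, 12 and 16 was left out, with slopes of 0.32 to 0.38 and adjusted p-values of 0.0543 to 0.0970 by the same edgeR test. The immediate early gene score, from 12 genes that neurons induce after activity, gave no called slope for any member by edgeR or limma voom, beside 0.0775% of all genes. Grik4 had an unadjusted p under 0.05 on it, with a slope of -0.25 (SE 0.10), beside 4.09% of all genes.

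A further score was built on transcript length. This transcript length score was taken after seeing the data as the mean log2 deviation of 1592 tested genes with at least 9683 exon bases minus that of 1593 genes with at most 1587 bases, with the members left out. Mice 6, 28, 12, 22 and 5 had the lowest scores, from -0.30 to -0.17, and the other mice had scores of -0.04 to 0.15. The slope on this score was called for 2 of 10 members, beside 36.8% of all genes (18.1% up and 18.7% down), in the same edgeR test: 2.68 (SE 0.42) for Grin2b and 1.57 (SE 0.38) for Grin2a. The adjusted p was 9.27e-06 for Grin2b and 0.00146 for Grin2a (edgeR quasi-likelihood test, Benjamini-Hochberg). Their exons cover 24.8 and 17.9 kb, the longest of the 10, while the other members with at least 9683 exon bases, Grin1, Grin3a and Grik2, had slopes of 0.34, 0.77 and 0.50 that did not pass. All 10 members had positive slopes, and 4 had an unadjusted p under 0.05 (Grin1 and Grik5 beside these 2), against 45.2% of all genes, so the members were not called more often than genes at large. Within set A alone Grin2b was called and Grin2a was not (slope 1.45, adjusted p 0.0722 by the same edgeR test), and within set B alone both were called.

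For Grin2b the correlation with the length score was an r of 0.79 (permutation p 2e-05, adjusted 1e-04) and a rho of 0.60 (permutation p 0.0004, adjusted 0.00171) over 32 mice. It was 0.71 without the 2 mice farthest from the median, 0.75 in set A and 0.87 in set B. For Grin2a the r was 0.63 (permutation p 0.00022, adjusted 0.000943) and the rho 0.41 (permutation p 0.0197, adjusted 0.0492), with 0.55 without the 2 farthest mice, 0.57 in set A and 0.70 in set B. Of the 5 mice with the lowest length scores, mice 6, 22 and 28 had 18.6, 23.5 and 34.5 CPM of Grin2b, whereas mice 12 and 5 had 42.5 and 51.0 CPM. The length score averaged 0.02 ± 0.10 in N/- and -0.02 ± 0.12 in N/N mice (SD, n = 16 each). With it as a covariate the genotype difference of Grin2b was 0.08 and that of Grin2a 0.08, and neither passed.

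**Figure D4:**
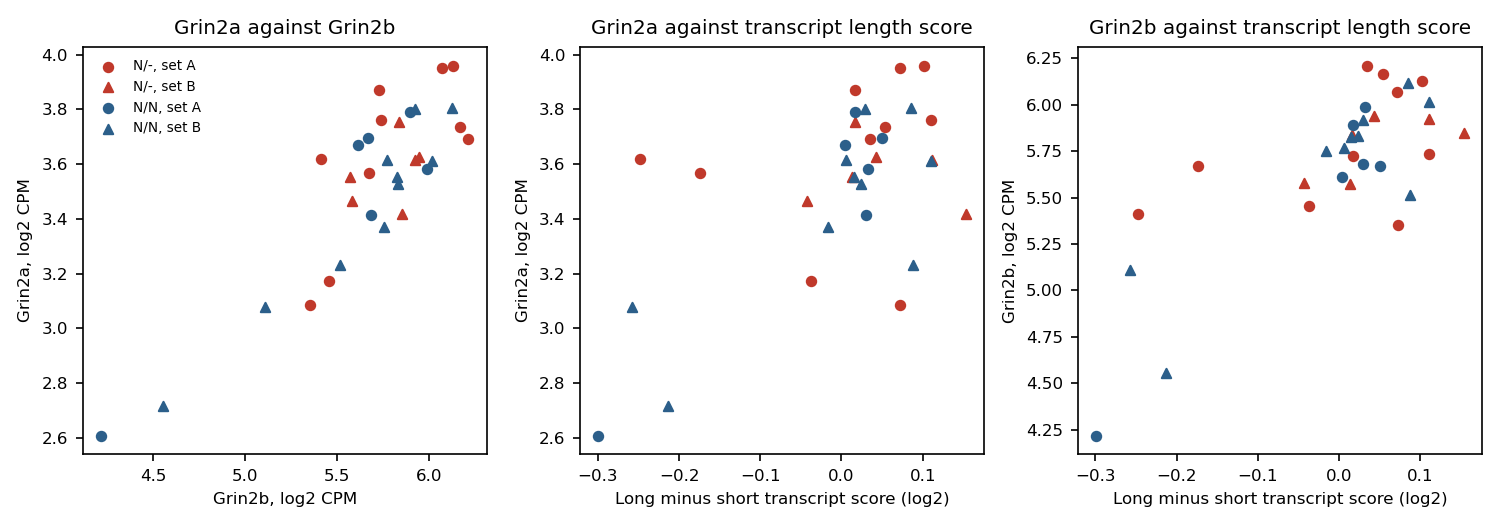
Grin2a against Grin2b in log2 CPM (left), and each of them (vertical axes, log2 CPM) against the long minus short transcript score in log2 units (middle and right), for N/- (red) and N/N (blue) mice of set A (circles) and set B (triangles). The pair varies together over 32 mice with an r of 0.87 between residuals, and the lowest Grin2b values lie at scores of -0.30 to -0.21.

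How the members vary together was described over all 45 pairs, on residual log2 CPM after set, sex and genotype. Of these, 10 pairs had an adjusted permutation p under 0.05 for Pearson r. The share of such pairs among other genes was not computed, so the count does not set the members apart from genes at large. Grin2a and Grin2b were the closest pair, with an r of 0.87 and a rho of 0.74 (permutation p of 1e-05 for both, the smallest possible, adjusted 0.000225), an r of 0.76 without the 2 farthest mice, 0.83 in set A and 0.92 in set B. Grik1 and Grik4 followed with an r of 0.76 and a rho of 0.63 (permutation p 1e-05 and 0.00016, adjusted 0.000225 and 0.00153), 0.67 without the 2 farthest mice, 0.87 in set A and 0.48 in set B. Grin1 and Grik5, both abundant, gave an r of 0.61 and a rho of 0.60 (permutation p 0.00023 and 0.00029, adjusted 0.00173 and 0.00218), 0.50 without the 2 farthest mice, 0.55 in set A and 0.60 in set B. Grik1 and Grik2 went opposite ways, with an r of -0.64 and a rho of -0.74 (permutation p 6e-05 and 1e-05, adjusted 0.0009 and 0.000225), -0.52 without the 2 farthest mice, -0.64 in set A and -0.45 in set B.

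The other 6 pairs joined Grik1, Grik4, Grin3a, Grin2d and Grik2. Grin3a had an r of 0.66 with Grik1, 0.60 with Grik4, 0.49 with Grin2d and -0.53 with Grik2, Grin2d had 0.60 with Grik1, and Grik2 had -0.54 with Grik4. Their permutation p-values were 9e-05 (Grin3a with Grik1) to 0.00412 (Grin3a with Grin2d), and adjusted values reached 0.0185. Within set B, Grin3a with Grik1 gave an r of 0.20, against 0.77 in set A. Grin2c had no pair with an adjusted p under 0.05.

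**Figure D5:**
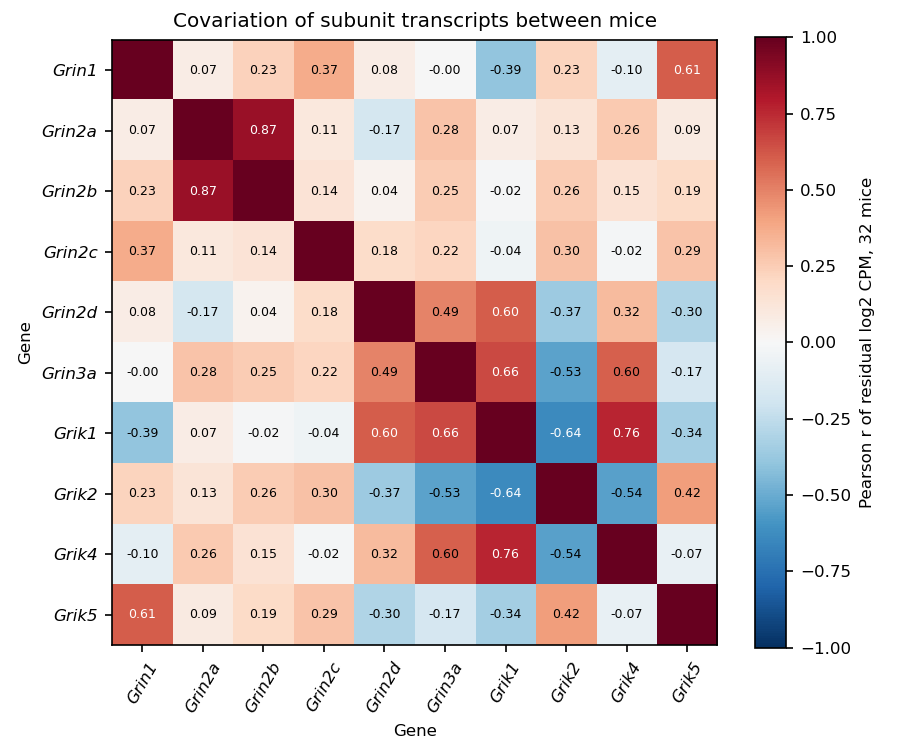
Pearson r between each pair of the 10 transcripts (both axes list the genes) over residual log2 CPM of 32 mice, with red for positive and blue for negative r. One block joins Grin2a and Grin2b (0.87), one joins Grin2d, Grin3a, Grik1 and Grik4, Grik2 is negative to that block, and Grin1 goes with Grik5 (0.61).

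Subunit ratios within a mouse do not depend on library scaling. The log2 ratio of Grin2a to Grin2b was -2.17 ± 0.21 in N/- and -2.15 ± 0.23 in N/N mice (SD, n = 16 each), with ranges of -2.52 to -1.79 and -2.41 to -1.61. So the mean of this ratio over both sexes was nearly the same in both genotypes, although Grin2b alone varied 3.98-fold between the lowest and highest mouse. In males it was -2.21 ± 0.13 in N/- and -2.04 ± 0.24 in N/N mice (SD, n = 8 each). In females it was -2.14 ± 0.27 in N/- and -2.26 ± 0.15 in N/N mice (SD, n = 8 each), the opposite direction, and neither difference was tested. Grin2a and Grin2b together over Grin1 gave a log2 ratio of -2.21 ± 0.30 in N/- and -2.46 ± 0.47 in N/N mice, where the N/N range reached down to -3.65 in mouse 6. Grik4 and Grik5 together over Grik1 and Grik2 gave 1.17 ± 0.20 in N/- and 1.16 ± 0.15 in N/N mice. These ratios are of read levels, not per length.

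The spread between mice set the members apart as well. The residual SD of log2 CPM was 0.41 for Grin2b, at the 88.3rd percentile of all genes tested, 0.38 for Grik1, 0.32 for Grin3a, 0.31 for Grin2d and 0.30 for Grin2a. It was 0.11 for Grin1 and for Grik5 and 0.12 for Grin2c, at the 23.1st, 24.7th and 31.7th percentiles, against a median of 0.16 over all genes. Counting error alone corresponds to an SD of 0.04 for Grin2b, 0.10 for Grik1 and 0.11 for Grin2d.

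For each member the genes named here are among the 3 most like it, taken by Pearson r of residual log2 CPM over the 32 mice, among 11728 genes with a symbol and at least 5 CPM. Grik2 went most closely with Stk26 (0.93), Onecut2 (0.92) and Rgs9 (0.92), the last a known regulator of G-protein signalling in projection neurons that also belongs to the projection neuron score. Grik1 went with Ppp1r26 (0.94) and Ildr2 (0.93), and Grik4 with Sidt1 (0.93), Fhod3 (0.93) and Sox5 (0.92), a transcription factor known from deep-layer cortical neurons. Grin3a went with Prkar2a (0.83), Rasgrf2 (0.82) and Erc1 (0.82). Grin2b went with Gatad2b (0.92), Slc9a7 (0.91) and Cbl (0.91), and Grin2a with Lmbrd2 (0.89) and Grin2b (0.87). Grin2d went with Cracd (0.87), Baiap3 (0.85) and Wdr6 (0.83). Values of r were lower for Grin1, with Mast3 (0.78) and Slc12a5 (0.78), for Grik5, with Mknk1 (0.77), Ldb1 (0.77) and Shc2 (0.76), and for Grin2c, with Speg (0.73), Amt (0.70) and Prrc2a (0.68). The mice share 2 sequencing sets, and these values describe likeness in these samples.

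Genes that work with these receptors were listed by role, and none was called between the genotypes by edgeR's quasi-likelihood test. That holds for 6 of 6 other subunits and auxiliary proteins, 12 of 12 scaffold and trafficking genes, 16 of 16 kinase and signalling genes, 11 of 13 co-agonist and zinc genes that passed the filter, and 4 of 4 AMPA receptor genes. Unadjusted p-values under 0.05 were found for 1 (down), 2 (1 up and 1 down), 3 (2 up and 1 down), 1 (up) and 0 of them, beside 6.46% of all genes. The smallest p-values were those of Slc30a3, a synaptic zinc transporter that is also a cortical marker in the score (log2 fold change 0.72, SE 0.24), Ptpn5, the striatum-enriched phosphatase that dephosphorylates GluN2B and is also a projection neuron marker (-0.16, SE 0.06), and Grin3b, the other GluN3 subunit (-0.24, SE 0.10). Median log2 fold changes of the lists lay between -0.02 and 0.04.

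In the other comparisons without a called gene of these lists, genes among the 3 with the smallest p-values are given here with their log2 estimates. In males, N/- over N/N, these include Slc30a3 (0.64, SE 0.32) and Rasgrf1, a Ras activator (0.13, SE 0.07), and in females they were Grin3b (-0.36, SE 0.14), Slc30a3 (0.81, SE 0.35) and Ptpn5 (-0.19, SE 0.09). For the interaction they include Gria1 (0.11) and Shmt2 (-0.10). Male over female they were Dlg1, Dlg4 and Srr (-0.08, -0.08 and -0.06), and set B over set A Shmt2 (0.09), Shmt1 (0.24) and Grin3b (-0.23). On the immediate early gene score they were Camk2g (-0.20), Camk2a (-0.15) and Slc30a3 (-0.52).

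On the cortical score 15 genes of these lists rose and 4 fell by edgeR's quasi-likelihood test, among 49 tested, beside 10.1% up and 6.49% down of all genes, and these counts include the markers Slc30a3 and Ptpn5. The kinase and signalling genes that rose were Camk2g (slope 0.47, SE 0.05), Camk2a (0.25) and Camk2d (0.55), subunits of CaM kinase II, Kalrn (0.29), Rasgrf2 (0.68) and Src, a kinase that enhances NMDA currents (0.12). The scaffold and trafficking genes that rose were Apba1, an adaptor in GluN2B transport (0.30, SE 0.04), Ephb2, a receptor kinase that binds GluN1 (0.61, SE 0.09), Gipc1 (0.17), Lin7a (0.21) and Cask (0.10). Slc30a3 (1.47), the amino acid transporter Slc1a4 (0.17), Gria3 (0.16) and Grik3 (0.18) rose as well. Those that fell were Ptpn5 (-0.37, SE 0.06), Camk2b (-0.19, SE 0.04), Kif17, the motor known to carry GluN2B (-0.21, SE 0.05), and Neto1, an auxiliary subunit of kainate receptors (-0.21, SE 0.06).

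On the projection neuron score 10 of the 49 rose and 10 fell, Slc30a3 and Ptpn5 included, beside 8.72% up and 10.8% down of all genes. Ptpn5 (0.86), Camk2b (0.45), Kif17 (0.51), the kainate auxiliary subunits Neto2 (0.63) and Neto1 (0.48), the PSD-95 family scaffolds Dlg1 (0.28) and Dlg4 (0.31), Grid1 (0.29), the serine racemase gene Srr (0.23) and Lin7c (0.21) rose, as Grik2 did. Slc30a3 (-2.58), Ephb2 (-1.20), Camk2g (-0.76), Rasgrf2 (-1.72), Camk2d (-1.51), Apba1 (-0.50), Slc1a4 (-0.38), Src (-0.22), Lin7a (-0.42) and Camk2a (-0.34) fell, as Grik1, Grik4 and Grin3a did. Slc30a3 belongs to the cortical score and Ptpn5 to the projection neuron score, so the slope of each on its own score is no finding. Both scores come from the same libraries, so their slopes on the other score are not independent results.

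On the transcript length score 10 of the 49 rose and 9 fell, beside 18.1% up and 18.7% down of all genes, which is near the share at large. All 4 AMPA receptor genes had positive slopes and 3 passed, Gria2 (0.83), Gria3 (0.67) and Gria4 (0.65). Others that rose, as Grin2a and Grin2b did, include Grik3 (0.95), the nitric oxide synthase gene Nos1 (1.36), Dapk1 (0.50), Kalrn (0.80), Cask (0.28) and Neto1 (0.51). Those that fell include the serine synthesis genes Psph (-0.83), Phgdh (-1.06) and Psat1 (-0.60), along with Gipc1 (-0.62), Cdk5 (-0.30), Lin7b (-0.49), Fyn (-0.35) and Dlg4 (-0.42).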

How the data were processed

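Whole striatum punches of 32 mice were sequenced as stranded mRNA libraries with 50 bp single-end reads, per the labels' protocols. The authors deposited raw read counts per gene for 2 sequencing runs of each mouse. The submitters' processing notes name FastQC 0.11.3, Subread with featureCounts, edgeR 3.8.6, limma 3.22.7 and mm10, while the series text names TopHat and HTSeq, so the aligner and counter cannot be stated. The runs of a mouse were summed, giving 28.8 M to 33.8 M counts per mouse. The intervals of fold changes and slopes come from the edgeR quasi-likelihood fit and include the spread between mice. Only the values named as counting error or counting SD leave that spread out. Of 27179 genes, 25275 had a symbol, and those without held 0.766% of counts.

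Genes were filtered with edgeR's filterByExpr, scaled by TMM and tested with edgeR 4.0.16 (R 4.3.3) by its robust quasi-likelihood test with terms for set, sex and genotype and Benjamini-Hochberg adjustment over 16776 genes. Marker scores are means of centred log2 CPM with a prior count of 2. Correlations used 100000 permutations. DESeq2 1.42.0, limma 3.58.1 (voom), other scaling, no filter, single sets, single runs, cage as a random effect, covariates and each mouse left out were alternatives. The fits were tested on simulated data. For each member the 3 genes with the highest r were named, and of the pathway lists the genes past the threshold or, with none, the 3 with the smallest p per comparison. Some genes that this rule picks are not reported here. The members and lists were chosen with earlier results of these data known. Promoter sequences are from RefSeq, GRCm38.p6, and exon lengths from the GRCm38 annotation.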

Additional observations from a re-analysis of the deposited data

Results flagged for a closer look

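In 2 of 40 groups of 8 mice (10 genes in 4 groups of genotype and sex) 1 mouse lay far from the rest, where chance gives about 1 in 20 groups. Grik2 was lowest in N/- male mouse 5 at 83.7 CPM, with the next N/- male at 128 CPM and the highest at 164 CPM, a gap of 0.549 of the range against a critical value of 0.526. Grin2b was lowest in N/N female mouse 28 at 34.5 CPM, with the next N/N female at 53.9 CPM and the highest at 69.6 CPM, a gap of 0.554 of the range.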

How the results depend on the processing

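The number of genes called between N/- and N/N mice was 2 under each alternative and with each mouse left out, except in set B alone, where it was 5. Between sets it was 27, 18 with no filter, 8 without mouse 3 and 11 without mouse 12, the only mice left out in turn for set, sex and the immediate early gene score. The 4 cortical and 4 projection neuron slope calls held under RLE scaling, limma voom and no filter, and the losses within sets stand in the report. Coding length moved all 10 levels: Grik5 to 108, Grin1 to 111, Grin2c to 17.4, Grik2 to 51.9, Grik4 to 5.69, Grin2b to 12.04, Grik1 to 2.51, Grin3a to 3.44, Grin2d to 1.39 and Grin2a to 2.68 CPM per kb.

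Signs turned for these values, and the cause was not tested. For male over female, Grin2c gave -0.00094342 with RLE scaling, -0.00021978 with limma voom and -0.10 in set A, Grik5 -0.051 in set A and Grik2 0.011 in set B. For set B over set A, Grik1 gave 0.0019 with no filter and 0.027 with limma voom. The genotype difference in set B was 0.010 for Grin1, -0.038 for Grin2d, -0.020 for Grin3a and 0.029 for Grik2. With the cortical covariate it was 0.0074 for Grik2, and with the projection neuron covariate 0.014 for Grik2 and -0.015 for Grik4. Cortical slopes were 0.065 for Grin2b and -0.053 for Grin2d in set A, and 0.11 for Grin1, -0.78 for Grin2a and 0.10 for Grin2c in set B. Projection neuron slopes were -0.14 for Grin2b in set A, and 1.51 for Grin2a and -0.049 for Grin2c in set B. Immediate early gene slopes were 0.053 for Grin1, 0.069 for Grin2c and 0.0049 for Grik5 in set A, 0.24 for Grin2a, 0.29 for Grin2b and -0.31 for Grin2d in set B, and -0.0063 for Grin2d with limma voom. Length score slopes in set B were -0.11 for Grin2c, -0.61 for Grik1 and -0.072 for Grik4.

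With a mouse left out, values that crossed 0 were Grin2c by sex (-0.0030 to 0.014), Grin2b by set (-0.015 to 0.024), the cortical slope of Grin2d (-0.062 to 0.24), the projection neuron slopes of Grin2b (-0.031 to 0.33) and Grin2c (-0.021 to 0.10), the immediate early gene slope of Grin2d (-0.0032 to 0.0061) and the length score slopes of Grin2d (-0.11 to 0.69) and Grik1 (-0.20 to 0.68). The projection neuron slope of Grin1 passed without any one of mice 4, 12, 17 and 30 (0.23 to 0.32), and that of Grin2d without mouse 2 or 15 (-0.78 and -0.80). The length score slope of Grik5 passed without mouse 29 (0.40). Grin2d, the scarcest, had a counting SD of 0.11 within a residual SD of 0.31. The mice share no replicate numbers between groups, and cage mates were not compared as pairs. Cage was used as a block instead, since 10 of 20 cages held both genotypes: with cage as a random effect in limma voom 0 of 10 members were called and 3 had an unadjusted p under 0.05 (Grin2c, Grin3a and Grik1).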
